A study of Mus musculus with 21 samples.

Results

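A set of 10 genes of matrix turnover was followed through mouse liver and cultured hepatocytes: 7 matrix metalloproteinases (Mmp2, Mmp8, Mmp9, Mmp12, Mmp13, Mmp14 and Mmp19) and 3 tissue inhibitors of metalloproteinases (Timp1, Timp2 and Timp3). They were picked by name from the deposited tables, and all 10 members were found once in each of the 3 tables, among 54532 genes in the CCl4 table and the hepatocyte table and 34280 genes in the TAA table. RNA sequencing covered 21 libraries in 7 groups of 3. The CCl4 table held livers labelled Sting knockout and given carbon tetrachloride (CCl4, a hepatotoxin) intraperitoneally, wild-type livers given CCl4, and wild-type livers given oil, for 6 weeks according to the sample labels (the design text states 8 weeks of CCl4). The TAA table held livers whose hepatocytes lack Nlrp3 by the labels, and wild-type livers, all given thioacetamide (TAA, another hepatotoxin) intraperitoneally for 8 weeks. The hepatocyte table held wild-type primary hepatocytes given LPS (1 µg/mL) for 6 h and nigericin (10 µM) for 30 min, with the NLRP3 inhibitor MCC950 (10 µM) added 2 h before or without it. Mouse strain, age, the Cre driver of the deletion and the construction of the Sting knockout are not stated in the sources. Replicates are not said to be separate animals or cultures, and every p-value below therefore refers to the spread among libraries alone.

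Matrix metalloproteinases are zinc enzymes, made as inactive proenzymes, that together can cleave most proteins of the extracellular matrix. TIMP proteins bind the active enzymes and block them, and TIMP2 on the surface of a cell also helps the membrane-bound enzyme MMP14 to activate proMMP2. In scarring liver, stellate cells are a known source of Mmp2, Timp1 and Timp2, macrophages of Mmp12 and Mmp13, and neutrophils carry Mmp8 and Mmp9 in their granules. Since whole liver was sequenced, fewer cells of a type and less RNA per cell cannot be told apart.

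The promoters of 7 members were in the RefSeq table of windows from 250 bases before to 50 after a gene's start (build GRCm38.p6), as 8 windows because Mmp12 has 2 starts there; Mmp2, Mmp9 and Mmp19 were named only. Those of Mmp13 and Mmp12 are shown because these proteinase genes were near the detection limit under oil and called higher under CCl4, and those of Timp1 and Timp3 because these inhibitors stood on opposite sides of the test. All 4 lie on the plus strand, and capitals mark matches to the AP-1, TATA and Sp1 motifs, each searched on both strands. The AP-1 motif was searched as TGANTCA. For the TATA box the letters were TATAAA, and the Sp1 box was read as GGGCGG.
Mmp13, chr9:7272264-7272563: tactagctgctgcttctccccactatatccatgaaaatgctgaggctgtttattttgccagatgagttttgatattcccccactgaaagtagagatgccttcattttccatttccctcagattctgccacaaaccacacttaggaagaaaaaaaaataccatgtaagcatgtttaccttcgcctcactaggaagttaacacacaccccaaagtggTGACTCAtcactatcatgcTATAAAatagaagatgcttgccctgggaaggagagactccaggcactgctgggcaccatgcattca
Mmp12, downstream start, chr9:7347124-7347423: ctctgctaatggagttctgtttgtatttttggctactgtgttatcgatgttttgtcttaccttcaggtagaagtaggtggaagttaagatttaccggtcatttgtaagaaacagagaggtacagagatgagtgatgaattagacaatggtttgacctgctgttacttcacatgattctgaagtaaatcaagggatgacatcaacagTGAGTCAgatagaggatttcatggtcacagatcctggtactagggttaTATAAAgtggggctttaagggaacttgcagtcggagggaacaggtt
Timp1, chrX:20869916-20870215: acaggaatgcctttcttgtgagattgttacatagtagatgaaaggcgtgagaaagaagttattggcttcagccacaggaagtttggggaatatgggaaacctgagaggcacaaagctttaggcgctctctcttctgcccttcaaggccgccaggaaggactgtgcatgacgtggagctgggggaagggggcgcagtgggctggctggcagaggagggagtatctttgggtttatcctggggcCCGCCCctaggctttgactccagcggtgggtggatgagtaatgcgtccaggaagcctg
Timp3, chr10:86300162-86300461: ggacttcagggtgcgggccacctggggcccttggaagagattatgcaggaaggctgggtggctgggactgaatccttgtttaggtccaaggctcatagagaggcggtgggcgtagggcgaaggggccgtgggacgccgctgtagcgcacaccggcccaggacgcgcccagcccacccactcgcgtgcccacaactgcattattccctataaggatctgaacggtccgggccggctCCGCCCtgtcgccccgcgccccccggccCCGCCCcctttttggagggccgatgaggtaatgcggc
The Mmp13 window held TGACTCA at -35 to -29 and TATAAA at -16 to -11, counted from the start as 0. The Mmp12 window held TGAGTCA at -44 to -38 and TATAAA at 4 to 9, while the window at the other Mmp12 start held neither. An AP-1 motif stood in 2 of the 8 member windows and in 7.81% of all 32851 windows of the same length, and a TATA box stood in 3 of 8 (the third was Mmp8) and in 13.6% of all. Both motifs together stood in 1.54% of all windows. An Sp1 box stood in 4 of 8, those of Mmp14, Timp1, Timp2 and Timp3, and in 35.7% of all. A looser NF-kB-like pattern (GGG and CC with any 5 bases between), some of whose matches overlap Sp1 boxes, stood in 5 of 8 and in 50.8% of all. These are letter matches and not measured binding sites.

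Read depth was 14353483 to 16684832 reads assigned to genes per library in the CCl4 table, 14883711 to 17157586 in the hepatocyte table, and 32096879 to 68913793 in the TAA table. Values are FPKM (reads scaled to gene length and to a divisor for each library, as deposited), so that genes can be set side by side within a table but not across tables. Sting1 RNA, listed as Tmem173, measured 3.42, 1.98 and 5.28 FPKM in the libraries labelled Sting knockout, 6.10, 5.15 and 4.74 FPKM in wild-type CCl4 livers and 0.885, 1.23 and 1.46 FPKM in oil livers, so the gene's RNA was present in the labelled knockout, whose titles also carry codes beginning with SWT that the labels do not explain (exact two-sided permutation p = 0.3 against wild-type CCl4; the smallest p that 3 against 3 allows is 0.1). Nlrp3 in the TAA table had 23, 105 and 83 counts in the deletion and 36, 24 and 28 in the wild type, and averaged 0.233 ± 0.146 FPKM in the deletion and 0.143 ± 0.0306 in the wild type with overlapping groups (SD, n = 3 each; exact two-sided permutation p = 0.4 on FPKM). By the labels other liver cells still carry the gene, so whole-liver RNA is a weak check of that deletion. The groups are therefore named below as labelled.

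The first question was how CCl4 changed these genes. Mmp2, Mmp9, Mmp12, Mmp13 and Mmp14 rose in wild-type CCl4 livers over oil livers, and so did the inhibitors Timp1 and Timp2; Mmp19 and Timp3 did not pass the test. That was 7 of the 9 members tested called higher and 0 lower, where 9.19% of the 11511 genes tested were called higher and 6.15% lower (limma on log2(FPKM + 1), Benjamini-Hochberg adjusted p under 0.05, over genes averaging 1 FPKM or more in the 9 libraries). Mmp9, Mmp12, Mmp13 and Timp1 were under 1 FPKM in oil livers and entered the test through the CCl4 groups, so the count describes the family and does not support it. FPKM of the 2 groups did not overlap, CCl4 being higher, for 9 of 10 members (16.6% of all genes tested), and for none with CCl4 lower (21.4%).

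**Figure D1:**
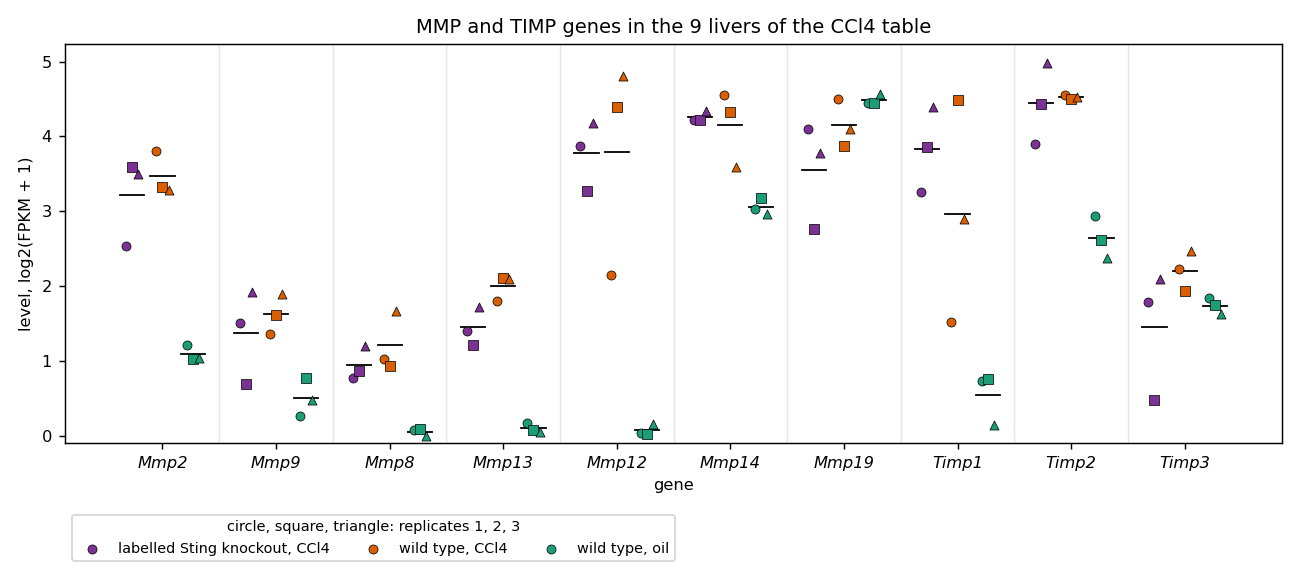
Level of each gene, as log2(FPKM + 1), in each library of the CCl4 table. Points are libraries and bars are means of the log2 values over 3 libraries. The oil points lie lowest for 9 of the 10 genes set against wild-type CCl4, and Mmp19 is the gene whose oil points lie among the highest.

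The gelatinase Mmp2 (MMP2 degrades denatured collagen and basement membrane collagen; gene on chr8:92827291-92853420, plus strand, in the files' coordinates) measured 4.83, 11.1 and 10.3 FPKM in Sting knockout CCl4 livers, 13.0, 9.05 and 8.74 in wild-type CCl4 livers and 1.33, 1.04 and 1.06 in oil livers. Every CCl4 library lay above every oil library, and Sting knockout replicate 1 was the lowest of the 6. The log2 fold change of wild-type CCl4 over oil was 2.38 (SE 0.28, limma adjusted p = 0.000546). Mmp9, the other gelatinase (chr2:164940780-164955850), measured 1.85, 0.612 and 2.79 FPKM in Sting knockout CCl4 livers, 1.57, 2.06 and 2.71 in wild-type CCl4 livers and 0.204, 0.713 and 0.397 in oil livers. Wild-type CCl4 livers were all above oil livers, while Sting knockout replicate 2 fell inside the oil range. The log2 fold change of wild-type CCl4 over oil was 1.11 (SE 0.30, adjusted p = 0.0324), with means of 2.11 ± 0.569 FPKM in wild-type CCl4 livers and 0.438 ± 0.257 FPKM in oil livers (SD, n = 3 each; limma).

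The collagenase Mmp13 (chr9:7272514-7283331, the main enzyme of mice that cuts intact fibrillar collagen) measured 1.65, 1.33 and 2.30 FPKM in Sting knockout CCl4 livers, 2.49, 3.31 and 3.26 in wild-type CCl4 livers, and 0.123, 0.0572 and 0.035 in oil livers. The oil values stood on 5, 2 and 1 reads, against 121, 169 and 162 reads in wild-type CCl4 livers, so the RNA was close to the detection limit without CCl4. Its log2 fold change of wild-type CCl4 over oil was 1.90 (SE 0.19, limma adjusted p = 0.000245), on a scale that understates changes of low genes because 1 is added to each value; edgeR on the recovered reads gave 5.26 (SE 0.51). The neutrophil collagenase Mmp8 (chr9:7558456-7568485) was below the level tested. It had 0.717, 0.829 and 1.30 FPKM in Sting knockout CCl4 livers, 1.04, 0.908 and 2.17 in wild-type CCl4 livers, and 0.0542, 0.063 and 0 in oil livers, the last on 2, 2 and 0 reads. All CCl4 libraries were above all oil libraries, and the exact permutation p for wild-type CCl4 against oil was 0.1, the smallest possible.

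Mmp12, the macrophage elastase (chr9:7344381-7369499), changed over the widest range. It measured 13.6, 8.62 and 17.2 FPKM in Sting knockout CCl4 livers, 3.43, 20.1 and 27.1 in wild-type CCl4 livers and 0.0272, 0.0211 and 0.116 in oil livers, where it had 3, 2 and 9 reads. Wild-type CCl4 replicate 1 was far below the other 2 of its group, yet above all oil libraries. The log2 fold change of wild-type CCl4 over oil was 3.71 (SE 0.56, limma adjusted p = 0.0018), and edgeR on recovered reads gave 8.33 (SE 0.88), which rests on few oil reads.

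Mmp14 encodes the membrane-anchored enzyme that activates proMMP2 (chr14:54431612-54445364 in this table; its end is 54441265 in the TAA table, whose annotation therefore differs). It measured 17.7, 17.7 and 19.2 FPKM in Sting knockout CCl4 livers, 22.4, 19.0 and 11.1 in wild-type CCl4 livers and 7.21, 8.02 and 6.83 in oil livers. The groups with CCl4 lay above the oil group throughout, with a log2 fold change of 1.10 for wild-type CCl4 over oil (SE 0.26, limma adjusted p = 0.0167). Mmp19, a secreted enzyme that cleaves basement membrane proteins (chr10:128790910-128800824), behaved otherwise: 16.2, 5.78 and 12.7 FPKM in Sting knockout CCl4 livers, 21.7, 13.6 and 16.2 in wild-type CCl4 livers and 20.9, 20.8 and 22.8 in oil livers. Wild-type CCl4 replicate 1 lay inside the oil range and the other 2 below it, and the log2 difference of -0.33 (SE 0.33, 95% interval -1.07 to 0.40, adjusted p = 0.585 by limma) did not pass the test.

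Among the inhibitors, Timp2 (chr11:118301069-118355740, minus strand) was the steadiest under CCl4. It measured 13.9, 20.7 and 30.7 FPKM in Sting knockout CCl4 livers, 22.4, 21.6 and 22.0 in wild-type CCl4 livers and 6.66, 5.16 and 4.21 in oil livers, a log2 fold change of 1.88 for wild-type CCl4 over oil (SE 0.28, limma adjusted p = 0.00182). The wild-type CCl4 libraries were almost equal, and all CCl4 libraries exceeded oil. Timp1, a gene known as a marker of active fibrosis (chrX:20870166-20874735), measured 8.55, 13.5 and 20.0 FPKM in Sting knockout CCl4 livers, 1.86, 21.5 and 6.48 in wild-type CCl4 livers and 0.666, 0.689 and 0.105 in oil livers, the last on 9, 8 and 1 reads. No CCl4 library overlapped oil, but wild-type CCl4 replicate 2 was far above replicate 1. The log2 fold change of wild-type CCl4 over oil was 2.42 (SE 0.60, limma adjusted p = 0.0214). Timp3, whose protein stays bound to the matrix (chr10:86300372-86349506), measured 2.45, 0.399 and 3.26 FPKM in Sting knockout CCl4 livers, 3.67, 2.81 and 4.56 in wild-type CCl4 livers and 2.57, 2.35 and 2.09 in oil livers. Wild-type CCl4 livers were all slightly above oil, but the log2 difference of 0.47 (SE 0.36, 95% interval -0.31 to 1.26, limma adjusted p = 0.439) did not pass the test.

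These calls were of unequal firmness. Mmp2, Mmp12, Mmp13 and Timp2 stayed called whichever 1 of the 9 libraries was left out. Leaving out any 1 oil replicate ended the calls of Mmp9, Mmp14 and Timp1 and left 4 members called, with limma adjusted p between 0.0531 and 0.116. Calls fell over the whole table in those fits. Without oil replicate 1, 2 or 3, 675 of 11571, 674 of 11602 and 678 of 11570 genes were called higher, against 1058 of 11511 with all libraries. Mmp14 also lost its call without wild-type CCl4 replicate 1 or 2 (limma adjusted p = 0.0535 and 0.0565), Mmp9 without wild-type CCl4 replicate 2 or 3 (0.0742 and 0.0967) and Timp1 without wild-type CCl4 replicate 3 (0.0519). Without the filter on low values, where 3.66% of all genes were called higher, Mmp9 and Timp1 missed the threshold (adjusted p = 0.0938 and 0.0794) and Mmp8 was called (adjusted p = 0.0215), while edgeR on recovered reads called 8 of 10 higher, Mmp8 included, and 13.2% of all genes tested.

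Markers of other cells moved with these genes. The summed FPKM of 10 macrophage markers was 629, 855 and 636 in Sting knockout CCl4 livers, 685, 709 and 1000 in wild-type CCl4 livers and 107, 149 and 127 in oil livers. For 11 neutrophil markers the sums were 100, 200 and 81.0 in Sting knockout CCl4 livers, 70.6, 67.0 and 152 in wild-type CCl4 livers and 6.08, 18.1 and 13.3 in oil livers. For 12 stellate and myofibroblast markers they were 231, 305 and 403 in Sting knockout CCl4 livers, 225, 349 and 351 in wild-type CCl4 livers and 121, 119 and 128 in oil livers. Sums of 6 cholangiocyte markers were 131 to 269 in Sting knockout CCl4 livers, 57.0 to 288 in wild-type CCl4 livers and 29.0 to 36.2 in oil livers, and those of 8 lymphocyte markers were 5.18 to 11.5 in Sting knockout CCl4 livers, 5.31 to 18.7 in wild-type CCl4 livers and 2.92 to 3.08 in oil livers. These 5 lists were higher in every CCl4 library than in every oil library, while sums of 7 sinusoidal endothelial markers overlapped (59.6 to 76.4 in Sting knockout CCl4, 69.9 to 77.7 in wild-type CCl4, 66.9 to 72.8 in oil). Hepatocyte sums overlapped as well (37500 to 93500, 35800 to 53700 and 51000 to 68400 in the same order). Kupffer cell sums overlapped oil in the Sting knockout group (237 to 453, 263 to 1090 and 152 to 249). Most of the cholangiocyte sum was Spp1, which is also counted below as a matrix substrate. Spp1 averaged 211 FPKM in Sting knockout CCl4 livers and 26.1 in oil livers, where the sums averaged 223 and 32.2. Of 4 cholangiocyte markers tested, 1 was called higher in wild-type CCl4 livers over oil livers. So were 9 of 9 macrophage, 5 of 7 neutrophil, 5 of 11 stellate and 0 of 2 lymphocyte markers tested, where 9.19% of all genes tested were. Col1a1 and Dcn of the stellate list are also counted below as matrix substrates. No marker of these lists was at 0 in a whole group, and the part of cell makeup in the members' rise was not tested. Wild-type CCl4 replicate 1, the low library for Mmp12 and Timp1, had the highest Kupffer cell sum (1090, against 263 and 436 in replicates 2 and 3) and the lowest cholangiocyte sum (57.0, against 288 and 278), and the part of these in its values was not tested.

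**Figure D2:**
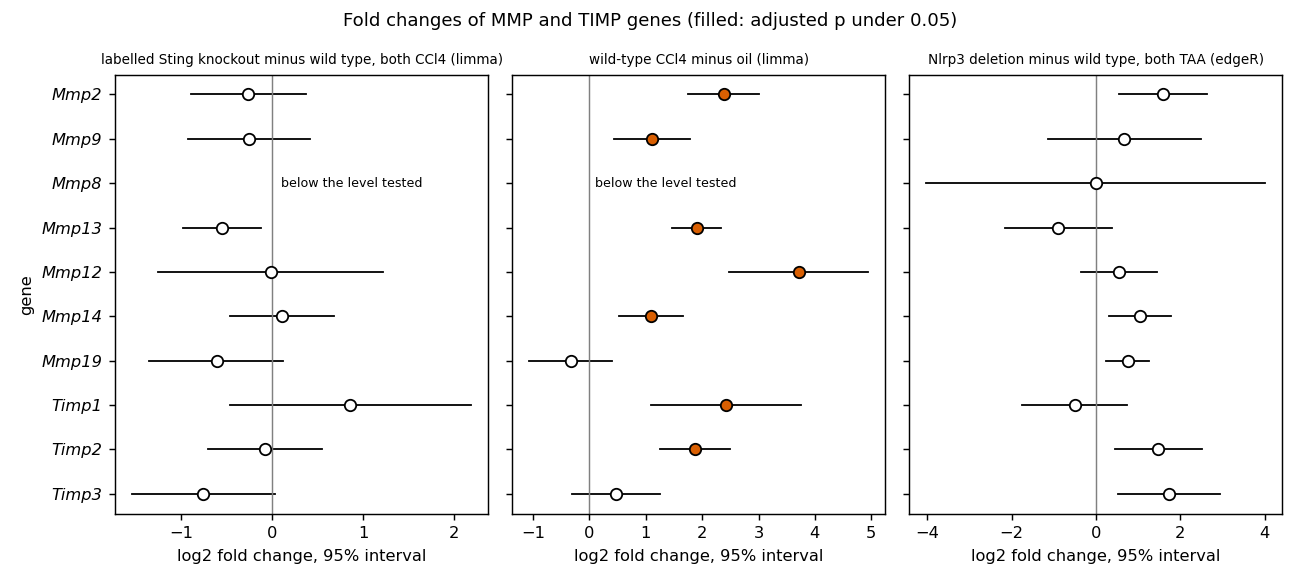
Log2 fold change of each gene with its 95% interval in 3 comparisons; filled points had an adjusted p under 0.05. In the middle panel 7 genes are filled, and in the left and right panels none is, with the largest estimates on the right for Timp3, Mmp2 and Timp2.

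The makeup of the pool differed between groups. Over the 7 proteinases, Mmp19 made up 20.2 ± 8.10% of the summed FPKM in Sting knockout CCl4 livers, 25.3 ± 6.85% in wild-type CCl4 livers and 70.2 ± 2.64% in oil livers (SD, n = 3 each). Mmp12 made up 24.0, 18.7 and 26.2% in Sting knockout CCl4 livers, 5.23, 29.5 and 38.0% in wild-type CCl4 livers and under 0.4% in each oil liver. Mmp14 held a share of 33.0% on average in Sting knockout CCl4 livers, 25.9% in wild-type CCl4 livers and 24.0% in oil livers. Among the inhibitors, Timp3 averaged 5.67% of the TIMP sum in Sting knockout CCl4 livers, 11.0% in wild-type CCl4 livers and 29.1% in oil livers, and Timp1 averaged 36.8% in Sting knockout CCl4 livers, 24.4% in wild-type CCl4 livers and 5.59% in oil livers.

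**Figure D3:**
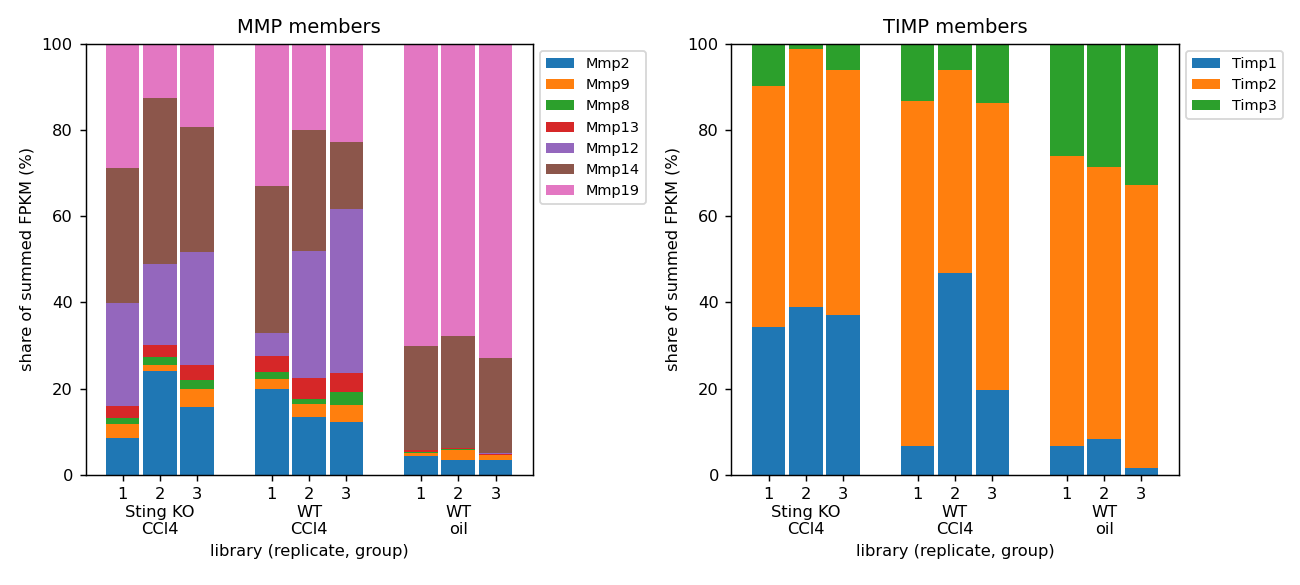
Share of each gene in the summed FPKM of the 7 proteinases (left) and of the 3 inhibitors (right), one stacked bar per library. Mmp19 fills 67.7 to 73.0% of each oil bar on the left and no more than 33.0% of any CCl4 bar.

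The TIMP sum was 37.8 ± 14.8 FPKM in Sting knockout CCl4 livers, 35.6 ± 9.28 in wild-type CCl4 livers and 8.17 ± 1.75 in oil livers (SD, n = 3 each). The MMP sum was 56.1 ± 9.91 FPKM in Sting knockout CCl4 livers, 68.3 ± 2.91 in wild-type CCl4 livers and 30.6 ± 0.709 in oil livers. The TIMP sum divided by the MMP sum was 0.440, 0.752 and 0.820 in Sting knockout CCl4 livers, 0.426, 0.675 and 0.463 in wild-type CCl4 livers and 0.332, 0.267 and 0.205 in oil livers. Each CCl4 library had a higher ratio than each oil library, and the 2 CCl4 groups overlapped. This is a ratio of RNA levels, not of protein or of activity.

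Genes around the proteinases moved too, in a comparison where 9.19% of all genes tested were called higher and 6.15% lower. Of 21 matrix proteins that these enzymes can cleave, 17 of 19 tested were called higher in wild-type CCl4 livers and 0 lower (median log2 fold change 1.93, against -0.08 over all genes tested). Col1a1, the main fibrillar collagen chain, averaged 67.4 ± 42.3 FPKM in wild-type CCl4 livers and 1.10 ± 0.383 in oil livers (log2 fold change 4.87, SE 0.45, limma adjusted p = 0.000161), and Col3a1 averaged 69.5 ± 22.4 FPKM in wild-type CCl4 livers and 3.62 ± 0.848 in oil livers (3.89, SE 0.30). Of 10 collagen cross-linking genes tested, 7 were called higher (median 1.32), led by the collagen chaperone Serpinh1 (log2 fold change 2.59) and the cross-linking oxidase Lox (2.39). Of 10 ADAM and ADAMTS metalloproteinases tested, 7 were called higher (median 0.95), with Adam8 at 2.54 and the procollagen-processing Adamts2 at 1.67. Of 8 cathepsins and cystatins tested, 4 were called higher (median 0.73), with Ctss at 2.70 and the collagen-degrading Ctsk at 2.29.

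In the list of genes that activate, anchor or restrain the proteinases, 8 of 18 tested were called higher and 1 lower (median 0.33). Over all genes tested the shares were again 9.19% higher and 6.15% lower, for this list and those that follow. Lcn2, whose human protein binds MMP9 in neutrophil granules, averaged 192 ± 153 FPKM in wild-type CCl4 livers and 7.53 ± 7.25 in oil livers (log2 fold change 4.79, limma adjusted p = 0.00255). Plau, the urokinase that makes plasmin, averaged 6.37 ± 3.20 FPKM in wild-type CCl4 livers and 0.842 ± 0.235 in oil livers (1.92, limma adjusted p = 0.00867). Of 12 AP-1 and ETS transcription factors tested, 4 were called higher and 0 lower (median 0.68), led by Atf3 at 2.99 and by Spi1, a factor of macrophages, at 1.81; binding at the printed promoters was not measured. Of the other 16 MMP genes and Timp4, 4 were tested and 2 were called higher, Mmp27 (1.64) and Mmp23 (1.63). Each of these lists was chosen with results of these livers known, and the counts describe them only.

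The next question was whether the labelled Sting knockout altered these genes under CCl4. No member was called, and neither was any of the 11511 genes tested (0%), where 366 genes had an unadjusted p under 0.05 by limma and 662 of 14894 by edgeR on recovered reads, which also called 0. Mmp13 was the one member whose libraries did not overlap. Its values were 1.65, 1.33 and 2.30 FPKM in Sting knockout CCl4 livers and 2.49, 3.31 and 3.26 in wild-type CCl4 livers, lower in the livers labelled knockout, as were 2.78% of all genes tested with no overlap (2.35% were higher). The log2 difference was -0.55 (SE 0.19, 95% interval -0.98 to -0.12) with an adjusted p = 0.761 by limma.

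For the other members the groups overlapped and the intervals were wide. Timp3 had a log2 difference of -0.76 (95% interval -1.54 to 0.03) and Mmp19 of -0.61 (-1.35 to 0.12), both with their lowest value in Sting knockout replicate 2. Without that library the differences were -0.27 for Timp3 and -0.22 for Mmp19. Timp1 had 0.86 (-0.46 to 2.19), with 0.14 when wild-type CCl4 replicate 1 was left out and 1.62 when wild-type CCl4 replicate 2 was (limma adjusted p = 0.572). Mmp2 had -0.26 (-0.89 to 0.37), Mmp9 -0.25 (-0.92 to 0.42), Mmp14 0.11 (-0.46 to 0.68) and Timp2 -0.08 (-0.71 to 0.55). Mmp12 had -0.01 with an interval from -1.25 to 1.22, so differences of either sign up to those bounds are not excluded. Sting knockout replicate 2 was the lowest of its group for 6 of 10 members and replicate 3 the highest for 8 of 10. Replicate 2 also had the highest sum of 8 hepatocyte markers, 93500 FPKM against 56200 and 37500 in replicates 1 and 3, and the part of this in the members' values was not tested.

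Set against oil livers, the Sting knockout CCl4 livers showed 6 of the 9 tested members called higher (Mmp2, Mmp12, Mmp13, Mmp14, Timp1 and Timp2) and 0 lower, where 8% of genes tested were called higher and 5.91% lower. Here too Mmp9, Mmp12, Mmp13 and Timp1 were under 1 FPKM in oil livers and entered the test through the CCl4 groups. Mmp13 passed the level filter only with the wild-type CCl4 libraries in the fit. The count therefore describes the family and does not support it. Genotype and agent differ together here, and this comparison shares its oil libraries with the first, so the values stand side by side and do not repeat it independently. The log2 fold change was 2.12 for Mmp2 (SE 0.28, limma adjusted p = 0.0011), 3.70 for Mmp12 (SE 0.56), 1.35 for Mmp13 (SE 0.19), 1.20 for Mmp14 (SE 0.26), 3.29 for Timp1 (SE 0.60) and 1.80 for Timp2 (SE 0.28). Of the members, 7 did not overlap oil on the higher side (17.8% of all genes tested), the 6 called and Mmp8. Mmp19 did not overlap on the lower side (19.8%), at 16.2, 5.78 and 12.7 FPKM in Sting knockout CCl4 livers against 20.9, 20.8 and 22.8 in oil livers, and its log2 difference of -0.94 (SE 0.33, limma adjusted p = 0.088) missed the threshold. With the replicate number as a block Mmp19 was called lower (limma adjusted p = 0.044, where 8.31% of genes tested were called lower). Mmp9 also missed it (0.87, adjusted p = 0.0869), and was called without Sting knockout replicate 2 (limma adjusted p = 0.0121). By edgeR on recovered reads, which called 11.4% of genes tested higher, 8 members were called higher, Mmp9 (log2 fold change 2.03, adjusted p = 0.0323) and Mmp8 (4.42, adjusted p = 0.00188) included. Mmp14 lost its call without oil replicate 3 (limma adjusted p = 0.0555).

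The TAA livers asked what deletion of Nlrp3 in hepatocytes did to the same genes. Mmp2, Mmp14, Mmp19, Timp2 and Timp3 were higher on average in the deletion, by log2 fold changes of 0.75 to 1.74, but none of the 10 members was called, where 1.37% of 18619 genes were called higher and 0.36% lower (edgeR quasi-likelihood test on counts, TMM factors, filterByExpr). FPKM did not overlap, deletion being higher, for 4 members (Mmp2, Mmp14, Mmp19 and Timp2), and for 27.8% of all genes tested; no member was lower without overlap (6.68% of genes).

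**Figure D4:**
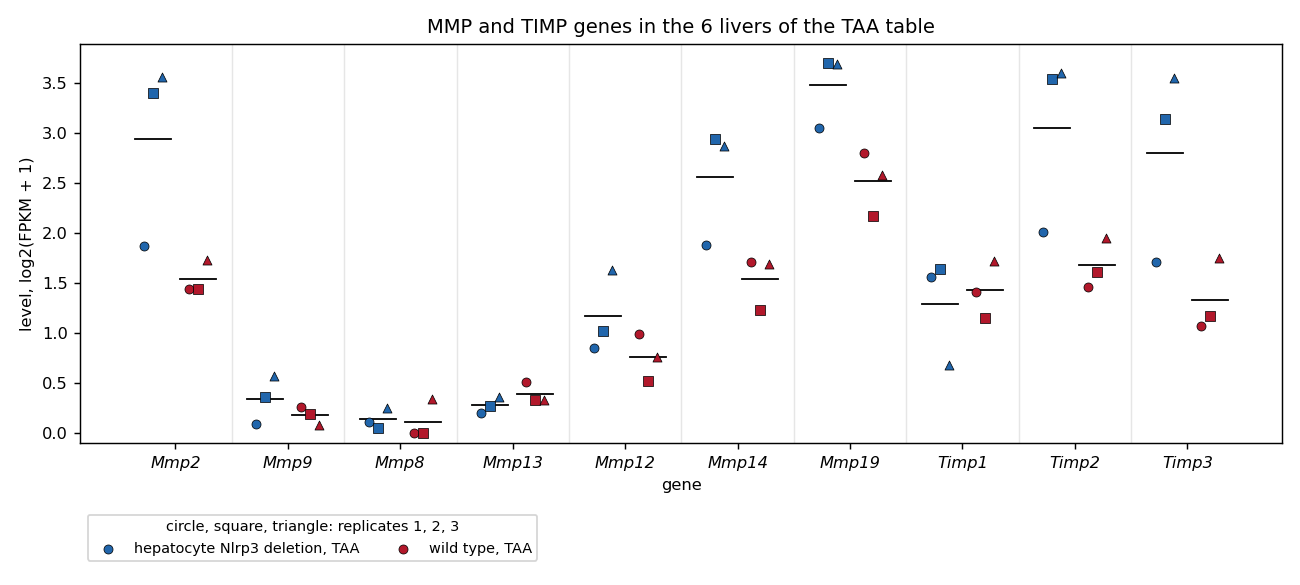
Level of each gene, as log2(FPKM + 1), in each library of the TAA table, with means of the log2 values over 3 libraries as bars. For Mmp2, Timp2 and Timp3 the deletion's replicate 1 (circle) lies close to the wild-type points and replicates 2 and 3 lie above them.

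Mmp2 measured 2.65, 9.50 and 10.8 FPKM in deletion livers, on 579, 2221 and 3011 counts, and 1.72, 1.72 and 2.32 FPKM in wild-type livers, on 326, 307 and 309 counts. Deletion replicate 1 stood just above the wild type and the other 2 far above. The log2 fold change was 1.59 (SE 0.46, 95% interval 0.54 to 2.64, edgeR adjusted p = 0.0774). Mmp14, which activates proMMP2, measured 2.67, 6.64 and 6.30 FPKM in deletion livers and 2.28, 1.34 and 2.23 in wild-type livers (log2 fold change 1.05, SE 0.32, edgeR adjusted p = 0.0849). Timp2, which takes part in that step, measured 3.02, 10.6 and 11.1 FPKM in deletion livers and 1.76, 2.06 and 2.86 in wild-type livers (1.48, SE 0.45, edgeR adjusted p = 0.0861). In all 3 genes replicate 1 was the lowest of the deletion group.

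Timp3 measured 2.27, 7.79 and 10.7 FPKM in deletion livers and 1.10, 1.25 and 2.36 in wild-type livers, and the groups overlapped because deletion replicate 1 lay below wild-type replicate 3 (log2 fold change 1.74, SE 0.52, edgeR adjusted p = 0.0836). Mmp19 measured 7.25, 12.0 and 11.9 FPKM in deletion livers and 5.94, 3.50 and 4.97 in wild-type livers (0.75, SE 0.22, edgeR adjusted p = 0.0804). It was the most abundant of the 7 proteinases in both groups, with 43.5% of their sum in the deletion and 48.2% in the wild type. Timp1 averaged lower, at 1.94, 2.11 and 0.61 FPKM in deletion livers and 1.65, 1.22 and 2.30 in wild-type livers, with overlapping groups (-0.51, 95% interval -1.76 to 0.74, edgeR adjusted p = 0.565).

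The leukocyte proteinases were low in these livers. Mmp12 measured 0.80, 1.03 and 2.10 FPKM in deletion livers and 0.99, 0.44 and 0.70 in wild-type livers (log2 fold change 0.54, edgeR adjusted p = 0.391). Mmp13 measured 0.15, 0.21 and 0.29 FPKM in deletion livers and 0.43, 0.26 and 0.26 in wild-type livers (-0.90, edgeR adjusted p = 0.311), and Mmp9 stayed under 0.5 FPKM in all 6 libraries. Mmp8 had 13, 8 and 38 counts in deletion livers and 0, 0 and 26 in wild-type livers, too few to set a direction.

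These calls turned on deletion replicate 1. Without it, Mmp2, Mmp14, Mmp19, Timp2 and Timp3 were all called higher, with log2 fold changes of 1.99, 1.34, 0.92, 1.86 and 2.15 and edgeR adjusted p = 0.00066, 0.00115, 0.00348, 0.00122 and 0.00213, where 17.9% of the 19889 genes tested were called higher. That replicate was the lowest of its group for 8 of 10 members. Its macrophage marker sum was 57.1 FPKM against 170 and 260 in deletion replicates 2 and 3, and 47.2, 39.4 and 56.3 in wild-type livers. Its stellate marker sum was 68.2 FPKM against 138 and 149 in deletion replicates 2 and 3, and 63.7, 45.0 and 67.8 in wild-type livers. Kupffer cell (66.7, against 105 and 157) and cholangiocyte sums (97.2, against 204 and 206) were also lowest in replicate 1. Other sums were not lowest there: neutrophil (14.6, against 8.90 and 35.5), sinusoidal endothelial (36.4, against 30.9 and 63.8) and lymphocyte (6.20, against 6.09 and 5.65). Hepatocyte marker sums differed by group, at 25500, 32900 and 32200 FPKM in deletion livers and 10300, 10000 and 9500 in wild-type livers. In the edgeR fit of all libraries 1 of these 8 markers was called higher (1.37% of genes tested). Their median log2 fold change was 0.96, against -0.04 over all genes tested. No stellate or macrophage marker was at 0 in a whole group, and the part of these shifts in the members' values was not tested. With no filter on low counts and all libraries, edgeR called 3 members higher, Mmp2, Timp2 and Timp3 (3.4% of genes tested). DESeq2 called Mmp2, Mmp14, Mmp19, Timp2 and Timp3 higher (8.39% of genes with an adjusted p), as did limma on log2(FPKM + 1) (21.7% of genes tested), with the median of all genes at 0.33 in the limma fit on deposited FPKM and at -0.04 in the edgeR fit on the log2 scale.

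The TIMP sum was 7.23, 20.5 and 22.4 FPKM in deletion livers and 4.51, 4.53 and 7.52 in wild-type livers, and the MMP sum was 13.7, 29.7 and 32.1 in deletion livers and 11.6, 7.40 and 10.8 in wild-type livers. Their ratio was 0.638 ± 0.0947 in the deletion and 0.566 ± 0.158 in the wild type (SD, n = 3 each), a difference smaller than the spread. That holds for the 7 proteinases followed here only. Mmp7, which stood above Mmp19 in these livers, is outside the MMP sum, so the ratio depends on this choice of genes. In the surrounding lists, Plg (plasminogen, which can activate proMMPs; log2 fold change 1.17), Ctsl (1.48) and Ctsh (1.27) were called higher and Junb (-1.04) lower, each with an edgeR adjusted p = 0.0487. Under RLE size factors 1 gene of 18619 was called in all, and none of these lists kept a call. No matrix substrate, cross-linking, ADAM or other MMP gene was called.

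In cultured hepatocytes only Mmp14, Mmp19 and Timp1 reached a mean of 1 FPKM, and MCC950 changed none of them detectably. No gene of 9835 tested was called (0%), with 1168 at an unadjusted p under 0.05 by limma and 1535 of 12050 by edgeR on recovered reads, which also called 0. Mmp14 measured 14.5, 14.0 and 14.6 FPKM with MCC950 and 14.9, 14.6 and 13.9 without it, a log2 difference of -0.01 (95% interval -0.13 to 0.11, limma adjusted p = 0.961). Mmp19 measured 5.69, 6.87 and 6.04 FPKM with MCC950 and 7.21, 6.42 and 6.54 without it (-0.10, 95% interval -0.29 to 0.08, limma adjusted p = 0.585). Both genes overlapped between groups, and for Mmp14 the interval leaves room for a small change only.

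Timp1 measured 1.01, 0.696 and 0.826 FPKM with MCC950, on 16, 11 and 13 reads, and 2.50, 0.966 and 0.958 without it, on 33, 14 and 14 reads. The difference came mostly from replicate 1 of the group without inhibitor, and the log2 value of -0.37 (95% interval -0.92 to 0.17) had a limma adjusted p = 0.509. Timp1 also reached the level tested only through that library, and it averaged 0.844 FPKM with MCC950. Mmp2 had 0 reads in each of the 6 libraries, which allows a level of up to 0.0499 to 0.0502 FPKM with MCC950 and 0.0541 to 0.06 FPKM without it (3 reads, counting error only). Mmp9, Mmp12 and Mmp13 had at most 4 reads in any library and Timp2 at most 3. Mmp8 had 1, 2 and 1 reads with MCC950 and 2, 4 and 6 without it, few enough for both groups to hold a library of 2 reads, while its FPKM did not overlap (10.8% of genes tested were lower without overlap and 8.88% higher), with an exact permutation p = 0.1.

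Timp3 was under 0.2 FPKM in all 6 cultures. Stellate markers summed to 5.16 to 6.65 FPKM with MCC950, with 4 of 12, Pdgfrb, Des, Acta2 and Col1a1, at 0, and to 6.36 to 6.90 FPKM without it, with 4 of 12, Lrat, Acta2, Col1a1 and Lum, at 0. Trem2, a marker of recruited macrophages, was at 0 in both groups, while all 10 macrophage markers summed to 76.7 to 91.1 FPKM with MCC950 and 71.0 to 91.1 without it. Only 2 of these 10 markers averaged 1 FPKM or more. Kupffer cell markers summed to 0.326 to 0.475 FPKM with MCC950 and 0.0786 to 0.121 without it. The part of such cells in the members' levels was not tested.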

How the data were processed

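RNA-seq of 21 mouse libraries was analysed. Per the submitters' processing notes, the tools were HISAT2 2.2.1 and featureCounts 1.5.0-p3 and the build was mm10. The authors deposited 3 tables, normalized separately: raw counts and FPKM in the TAA table per the file headers, and FPKM with gene lengths in the CCl4 and hepatocyte tables. In those 2 tables FPKM times length was a whole multiple (within 0.05) of each library's smallest such value for 99.88 to 100% of the values above 0, and these multiples were taken as recovered reads. How FPKM was scaled, and whether strand was used in counting, is not stated in the sources. The divisor implied by the smallest value was not the number of recovered reads. It was 10679214 in oil replicate 3, with 14353483 reads, and 19080244 in wild-type CCl4 replicate 2, with 16357783 reads. Timp1 lies inside Syn1, Timp3 inside Syn3, Timp2 overlaps Cep295nl on the same strand, and Mmp12 and Mmp19 touch opposite-strand genes, each averaging at most 1.01 FPKM in any CCl4-table group.

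Comparisons stayed within a table. FPKM tables used limma 3.58.1 with an intensity trend on log2(FPKM + 1), over genes averaging 1 FPKM or more, and 1 fit for the 9 libraries of the CCl4 table. TAA counts used edgeR 4.0.16 (quasi-likelihood test). All were two-sided, adjusted by Benjamini-Hochberg over all genes tested and called under 0.05. The tests were run on data simulated for the compared groups alone, with changes placed only in genes with many reads. That check does not cover members on few reads. R was 4.3.3; DESeq2 1.42.0, edgeR on recovered reads, other scalings, filters and pseudocounts, a replicate block and leaving out each library were alternatives. Deviations of same-numbered libraries correlated over genes by 0.23, 0.32 and 0.52 between wild-type CCl4 and oil and by 0.19, 0.18 and 0.12 between Sting knockout and wild type. Between the hepatocyte groups they correlated by 0.18, 0.22 and 0.09. The main tests did not pair libraries, and the replicate block is the alternative that uses these numbers. The members, gene lists and tests were chosen with earlier results of these data known. From each list of other genes, the text draws on the up to 4 called genes with the largest change.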

Additional observations from a re-analysis of the deposited data

How the results depend on the processing

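Of 543 recomputed fold changes of members, 485 kept direction and call, 21 gained a call, 17 lost one and 20 changed sign, all 20 among members not called. Members called higher by CCl4 over oil ranged from 4 to 7 when 1 library was left out. Over all genes tested, those called higher ranged from 674 of 11602 to 1274 of 11499 in the same fits. For Sting knockout CCl4 over oil, the replicate block called 1 member lower, Mmp19 (adjusted p = 0.044), though same-numbered libraries there correlated by 0.02, 0.18 and 0.09. The block, or pairing, left the 7 calls of CCl4 over oil and the 0 calls of Sting knockout over wild type as they were, and under TAA called 0 members, where numbers correlated by 0.10, -0.04 and -0.02. Over all genes tested, the block fits called 1182 of 11511 higher for CCl4 over oil. They called 0 for Sting knockout over wild type and 2 of 18619 under TAA. Nlrp3 deletion under TAA had 3 members called higher with no filter on low counts (3.4% of genes tested), 5 with DESeq2 (8.39%) and 5 with limma on FPKM (21.7%). It had 0 to 5 when 1 library was left out, where 0 to 3570 of all genes tested were called higher. No result in hepatocytes gained a member call.

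Signs changed as follows on the log2 scale. For Sting knockout over wild type, Mmp12 was 0.03 with a pseudocount of 0.1 and 0.01 with TMM-like scaling, and Timp2 was 0.01 with edgeR on recovered reads. With 1 library left out at a time in that comparison, Mmp12 ranged from -0.83 to 0.50, Mmp14 from -0.17 to 0.30, Mmp2 from -0.45 to 0.08, Mmp9 from -0.52 to 0.10 and Timp2 from -0.35 to 0.19. Timp3 in Sting knockout CCl4 over oil ranged likewise from -0.60 to 0.20. For the deletion, Mmp8 was 0.02 with RLE factors, 0.04 with no filter, 0.03 with DESeq2 and 2.35 with the block, and ranged from -0.68 to 6.98 with 1 library left out. For MCC950, Mmp14 ranged from -0.04 to 0.01. The causes were not tested. Depth limits Mmp8, Mmp12, Mmp13 and Timp1 in oil livers, at 0 to 9 reads.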

Other observations

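Mmp13, Mmp12 and Mmp8 lie in a run of 10 MMP genes on chromosome 9 between 7272514 and 7699585, and their neighbours differed in level in the CCl4 table. Mmp27, next to Mmp8, averaged 1.94 ± 0.401 FPKM in Sting knockout CCl4 livers, 3.13 ± 0.823 in wild-type CCl4 livers and 0.311 ± 0.127 in oil livers, and was called higher by CCl4 over oil (limma adjusted p = 0.000763). Mmp3 averaged 0.271 ± 0.0922 FPKM in Sting knockout CCl4 livers, 0.599 ± 0.479 in wild-type CCl4 livers and 0.0173 ± 0.03 in oil livers. Mmp1a and Mmp1b had 0 reads in all 9 libraries. These neighbours, apart from Mmp27, were chosen after their values were seen.

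Mmp7, at the far end of that run and also chosen after its values were seen, varied within groups. In the CCl4 table it had 6, 13 and 9 reads in Sting knockout CCl4 livers, 20, 18 and 165 in wild-type CCl4 livers and 4, 0 and 0 in oil livers. Under TAA it measured 14.4, 51.8 and 46.9 FPKM in deletion livers and 15.9, 16.6 and 32.8 in wild-type livers, and was not called. In the TAA table it stood above Mmp19, the most abundant of the 7 proteinases followed here. Mmp7 is not part of the MMP sums or of the ratios of TIMP to MMP given above. Cholangiocyte marker sums, which include Spp1, were 97.2, 204 and 206 FPKM in the same deletion livers and 70.7, 67.7 and 172 in the wild-type livers. Their part in the Mmp7 level was not tested.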
